A study of Homo sapiens with 18 samples.

Results

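KELLY is an established human neuroblastoma line with amplified MYCN, and the comparison described here set 2 KELLY libraries from cells given 1 uM BRM014 against 2 from cells given the solvent, DMSO. These are 4 of the 18 libraries of a series that also treated IMR-32 and SK-N-DZ cells in the same way and degraded SMARCA4 in an engineered IMR-32 line. The libraries were chosen by their labels alone, not by any measured value. The labels give the KELLY cells a wild-type genotype. Cells of all 4 libraries received 500 uM of the nucleoside 4-thiouridine (4sU) for 2 h before harvest, so that counts derive from newly made messenger RNA; 2 further KELLY libraries without 4sU served only to measure background. The sources used here do not give the time of exposure to BRM014. Nothing says that paired libraries came from separate cultures. The p-values therefore measure only how far these libraries differ, possibly for technical reasons.

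BRM014 inhibits SMARCA4 (BRG1) and SMARCA2 (BRM), the alternative ATPases of the BAF (SWI/SNF) complexes, which move nucleosomes and keep enhancers and promoters open to transcription factors. Neuroblastoma arises from the sympathoadrenal branch of the neural crest. Its adrenergic cell state is held by a circuit of transcription factors that includes HAND2, GATA3 and ISL1. Genes for making, packing and breaking down noradrenaline mark this state, whereas a mesenchymal state carries other regulators.

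The BRM014 libraries held 1505376 and 1512030 gene counts and the DMSO libraries 1590402 and 1235931, in 14075 to 14913 detected genes. Chi-square statistics per degree of freedom between the libraries of a group were 3.21 to 3.31, above counting noise. The first principal component, with 57.4% of the variance, separated BRM014 from DMSO. DMSO replicate 1 stood apart in its mitochondrial 16S ribosomal RNA, RNR2, and calls lost without it are named beside the gene. Markers of other cell types were scarce. Of 16 neural crest and Schwann lineage markers 6 had no count in any of the 4 libraries (among them S100B and PAX3). Their summed level, in counts scaled to library size (CPM), was 64.7 to 71.1 with BRM014, against 65.4 to 86.7 CPM with DMSO. Of 12 fibroblast markers 5 had none (among them COL1A2, COL3A1 and DCN), with sums of 106.5 to 106.9 CPM with BRM014, against 72.3 to 80.9 CPM with DMSO. Of 6 melanocyte markers TYR and DCT had none, with sums of 32.0 to 37.1 CPM with BRM014, against at most 19.0 CPM with DMSO. Of 8 endothelial and 8 leukocyte markers 5 in each list had none, and no sum exceeded 5.23 CPM. None of the markers tested in these 5 lists was called. Without BRM014 replicate 1 the fibroblast markers VIM (edgeR adjusted p = 0.00973) and FN1 (1.03, edgeR adjusted p = 0.0459) were called higher, and VIM also with offsets for transcript GC content and length (edgeR adjusted p = 0.0453). VIM had 0 and 7 counts with BRM014, against 0 and 0 with DMSO. Fibroblast and melanocyte sums were higher in both BRM014 libraries than in either DMSO library. Most of the melanocyte sum was MITF, with 43 and 50 counts with BRM014, against 20 and 22 with DMSO. PMEL went the other way, with 0 and 1 counts with BRM014, against 4 and 1 with DMSO. Of the fibroblast markers, THY1 (-0.58) and FBN1 (-0.14) had log2 fold changes below 0, and VIM, FN1 (0.83) and CD44 (1.57) above it. The part of other cells in the results was not tested further.

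BRM014 changed new RNA widely in KELLY. Of 12853 genes tested, 1485 (11.6%) were called at an adjusted p below 0.05, of which 845 (6.57% of those tested) were higher with BRM014 and 640 (4.98%) lower. Here and below, the test is edgeR's quasi-likelihood test with Benjamini-Hochberg adjustment over all genes tested, fold changes are BRM014 over DMSO on the log2 scale with their standard error (SE), and each group has 2 libraries. The changes among lower genes were larger: 374 of the 640 had fallen at least 2-fold and 81 at least 8-fold, against 361 and 44 of the 845 higher genes. Fold changes compare genes within a library, and a change shared by all of them would stay unseen. In bulk RNA, fewer cells of a kind and less new RNA per cell cannot be told apart. With either BRM014 library or either DMSO library left out, 872 to 1160 genes were called, the fewest without DMSO replicate 1. The split of calls depended on scaling, with 694 higher and 793 lower under upper quartile scaling.

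SMARCA4 itself, the target of the compound, had 159 and 197 counts with BRM014, against 184 and 141 with DMSO (log2 fold change 0.08 ± 0.15, edgeR adjusted p = 0.831). The groups overlapped. The compound acts on the protein, so these values do not check the treatment. SMARCA2 had no count in any KELLY library, which allows up to 3 counts per group, so its new RNA was not detectable at this depth.

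Some of the strongest rises began from near absence. GATA6 (chromosome 18, 22169589 to 22202528; RefSeq coordinates on GRCh38.p14, as below), a transcription factor of endoderm, heart and mesenchymal lineages, had 93 and 101 counts with BRM014, against 3 and 2 with DMSO (log2 fold change 5.15 ± 0.79, edgeR adjusted p = 3.18e-07). DACT1, a modulator of Wnt signalling, had 130 and 130 counts with BRM014, against 8 and 9 with DMSO (log2 fold change 3.86 ± 0.33, edgeR adjusted p = 3.02e-17). BHLHE41, a repressor of the circadian clock, had 79 and 121 counts with BRM014, against 7 and 9 with DMSO (log2 fold change 3.55 ± 0.67, edgeR adjusted p = 3.12e-05). In each of the 3 genes both DMSO libraries were close to empty and both BRM014 libraries far above them.

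The other genes with the strongest rises fell into a few families, and not all of them began from near absence. Among transcriptional regulators, SHOX2, a homeobox factor of limb, heart and neurons, had 534 and 591 counts with BRM014, against 73 and 42 with DMSO (log2 fold change 3.25 ± 0.30, edgeR adjusted p = 6.66e-16). FOXC1, a forkhead factor of mesoderm and neural crest, had 191 and 162 counts with BRM014, against 20 and 6 with DMSO (log2 fold change 3.71 ± 0.28, edgeR adjusted p = 7.52e-20). LMO3, a LIM-domain cofactor known as an oncogene in neuroblastoma, had 161 and 155 counts with BRM014, against 8 and 13 with DMSO (log2 fold change 3.82 ± 0.52, edgeR adjusted p = 9.04e-09). ST18, a zinc-finger factor of neurons and endocrine cells, had 262 and 338 counts with BRM014, against 31 and 29 with DMSO (log2 fold change 3.25 ± 0.38, edgeR adjusted p = 4.72e-11). The groups did not overlap in any of these 4 genes, which the ranking required. Both BRM014 libraries were above both DMSO libraries in 25.8% of all tested genes and below them in 25.0%. Groups were apart in 100% of the genes called higher and 99.8% of those called lower, against 50.8% of all tested. Separate groups therefore go with a call, here and below, and are not further support for it. Among extracellular and adhesive proteins, TIMP3, an inhibitor of matrix metalloproteinases, had 219 and 233 counts with BRM014, against 23 and 14 with DMSO (log2 fold change 3.55 ± 0.24, edgeR adjusted p = 1.56e-22). LAMA4, a laminin chain of basement membranes, had 68 and 82 counts with BRM014, against 7 and 1 with DMSO (log2 fold change 4.17 ± 0.81, edgeR adjusted p = 5.88e-05). The repulsive guidance ligands SEMA3C (3.86 ± 0.79) and SEMA3D (3.36 ± 0.60), the synaptic adhesion molecule CADM2 (3.73 ± 0.87), and the actin-associated proteins SYNPO2 (3.48 ± 0.24) and SORBS2 (3.39 ± 0.53) also rose. SORBS2 was at 2.42 without DMSO replicate 1 and 5.57 without DMSO replicate 2, called in both. Their edgeR adjusted p were 0.00102 or less. SEMA3C and CADM2 lost their call in DESeq2. The non-coding DNM3OS, host of microRNAs inside DNM3, had 112 and 105 counts with BRM014, against 7 and 5 with DMSO. The unlabelled libraries held 25.0% of its DMSO counts, and its reads cannot be told apart from those of DNM3.

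Some of the strongest falls were of near-complete loss and included the defining enzyme of catecholamine cells. TH (chromosome 11, 2163929 to 2171815), tyrosine hydroxylase, the rate-limiting enzyme of catecholamine synthesis, had 1 and 0 counts with BRM014, against 197 and 89 with DMSO. Its ratio of DMSO over BRM014 was 297, with an exact 95% counting interval of 52.8 to 11752 (edgeR adjusted p = 9.32e-13). RET (chromosome 10, 43077069 to 43130351), the receptor tyrosine kinase for ligands of the GDNF family, had 1 and 9 counts with BRM014, against 256 and 204 with DMSO (log2 fold change -5.54 ± 0.45, edgeR adjusted p = 1.42e-18). Both genes were at or next to 0 in both BRM014 libraries and abundant in both DMSO libraries.

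P2RY6, a receptor for uridine nucleotides, had 0 and 0 counts with BRM014, against 53 and 50 with DMSO. It was at least 35.6-fold lower, with 3 counts over the BRM014 group as the floor (edgeR adjusted p = 1.77e-05). SHD, an SH2-domain adaptor, had 2 and 0 counts with BRM014, against 131 and 61 with DMSO, a ratio of DMSO over BRM014 of 99.5 with a counting interval of 27.2 to 828 (edgeR adjusted p = 3.47e-15). CARTPT, the precursor of the CART neuropeptides, had 5 and 0 counts with BRM014, against 60 and 102 with DMSO (log2 fold change -5.04 ± 0.90, edgeR adjusted p = 1.00e-05), a call that DESeq2 did not make and whose size rests on replicate 1, which held all of its BRM014 counts. Both BRM014 libraries of these genes lay between 0 and 5 counts and no DMSO library held fewer than 50. GFRA2, the co-receptor for neurturin that works through RET, had 3 and 8 counts with BRM014, against 83 and 57 with DMSO (log2 fold change -3.68 ± 0.34, edgeR adjusted p = 9.26e-16). PLXNA2, a semaphorin co-receptor, had 11 and 12 counts with BRM014, against 126 and 99 with DMSO (log2 fold change -3.33 ± 0.39, edgeR adjusted p = 2.39e-11). PGF (placental growth factor, -3.13 ± 0.35) and IGFBP4 (an IGF-binding protein, -3.07 ± 0.35) fell as well. The heparan sulphate sulphotransferase HS6ST1 (-3.24 ± 0.43), KLHDC8B (-3.12 ± 0.43), the microglial marker TMEM119 (-3.02 ± 0.60), the actin crosslinker filamin C, FLNC (-3.00 ± 0.35), and the retrotransposon-derived imprinted gene RTL1 (-2.98 ± 0.53) were also in the ranking. Their edgeR adjusted p were 7.82e-05 or less. CRB2, a polarity protein, had 4 and 9 counts with BRM014, against 93 and 21 with DMSO (log2 fold change -3.09 ± 0.58, edgeR adjusted p = 3.38e-05). Without DMSO replicate 1 its call was lost (-1.90, edgeR adjusted p = 0.123).

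**Figure D1:**
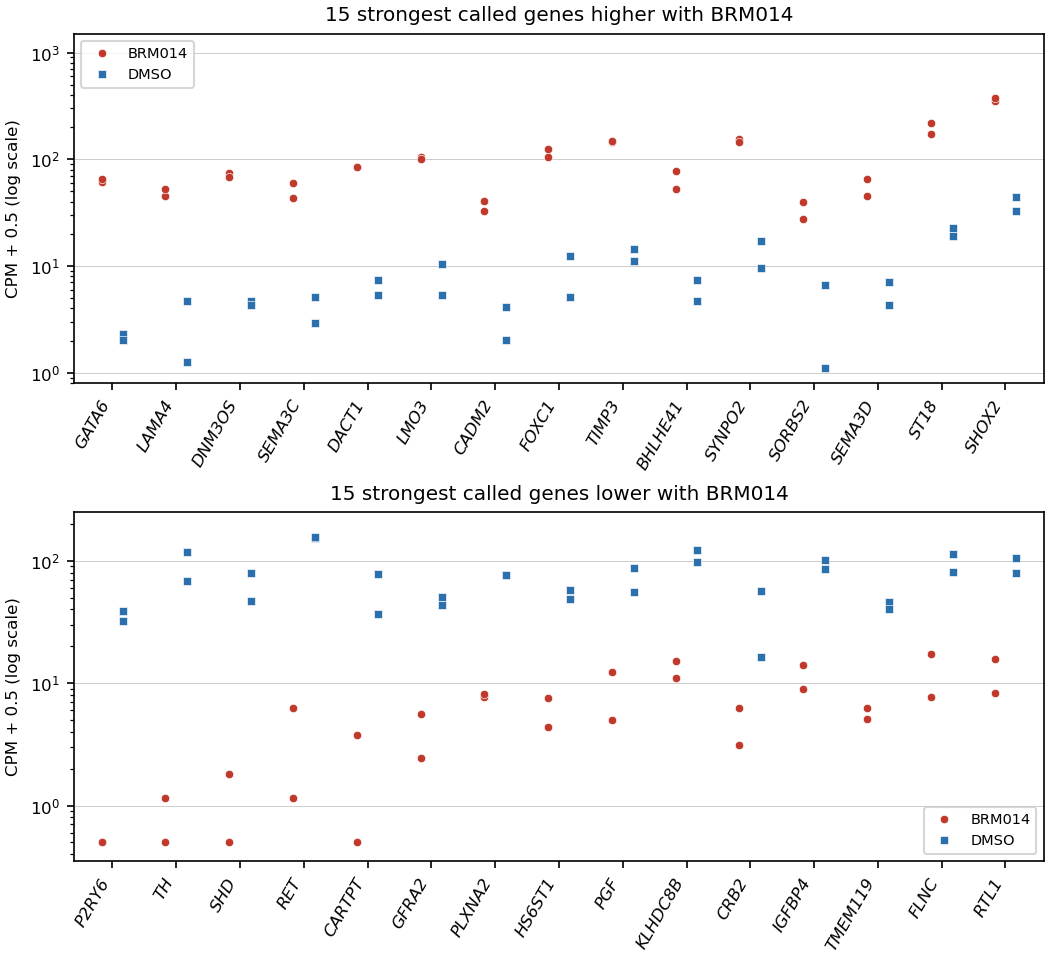
CPM plus 0.5 (log axis) of the 15 called genes with the highest and the 15 with the lowest fold change, with BRM014 libraries as red circles on the left of each pair and DMSO libraries as blue squares on the right. The circles lie above the squares in every gene of the upper panel and below them in every gene of the lower panel, where TH stands at 1 and 0 counts with BRM014, against 197 and 89 with DMSO.

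A fixed cut on raw counts in the same libraries lists the genes between near absence and presence. It selects such genes by its own terms and is no separate support. Apart from MIR137HG, the genes it lists are also in the fold change ranking. With at most 10 counts in each DMSO library and at least 50 in each BRM014 library there were 7 genes: BHLHE41, DACT1, DNM3OS, GATA6, LAMA4, MIR137HG and SEMA3C. With at most 10 in each BRM014 library and at least 50 in each DMSO library there were also 7: CARTPT, GFRA2, P2RY6, RET, SHD, TH and TMEM119. MIR137HG, the host transcript of the neuronal microRNA miR-137, was named here after its values were seen, at 119 and 87 counts with BRM014 against 7 and 7 with DMSO.

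The adrenergic circuit did not move as one. Of 28 adrenergic regulators, all tested, 12 were higher and 8 lower, with a median log2 fold change of 0.19 beside 0.00 over all genes. Over all tested genes 6.57% were higher and 4.98% lower, and every list count of calls in KELLY below is to be read beside these shares. ISL1 (chromosome 5, 51383448 to 51394730), a LIM-homeobox factor of sympathetic and motor neurons, had 1942 and 2119 counts with BRM014, against 602 and 525 with DMSO (log2 fold change 1.79 ± 0.11, edgeR adjusted p = 1.51e-26). SOX4 had 1081 and 1025 counts with BRM014, against 279 and 242 with DMSO (log2 fold change 1.96 ± 0.11, edgeR adjusted p = 2.83e-28). EYA1, a transcriptional coactivator, had 1246 and 1247 counts with BRM014, against 427 and 363 with DMSO (log2 fold change 1.60 ± 0.13, edgeR adjusted p = 6.46e-19). All 3 genes were more than 2-fold higher, with BRM014 libraries close to each other.

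Other members of the same circuit fell. GATA2 (chromosome 3, 128479422 to 128493201), a zinc-finger factor of sympathetic neuron differentiation, had 509 and 460 counts with BRM014, against 2510 and 1811 with DMSO (log2 fold change -2.20 ± 0.11, edgeR adjusted p = 5.77e-31). TBX2, a T-box factor, had 88 and 121 counts with BRM014, against 448 and 263 with DMSO (log2 fold change -1.80 ± 0.14, edgeR adjusted p = 8.90e-19). In both genes the BRM014 libraries lay far below the DMSO libraries. PHOX2A, a homeobox factor of noradrenergic neurons, had 320 and 284 counts with BRM014, against 623 and 458 with DMSO (log2 fold change -0.89 ± 0.12, edgeR adjusted p = 5.73e-09), which with offsets for transcript GC content and length was -0.34 with an adjusted p of 0.058 and no longer called. MYCN (chromosome 2, 15940550 to 15947004), the amplified oncogene and among the most counted genes of the line, had 7351 and 6869 counts with BRM014, against 12024 and 7844 with DMSO (log2 fold change -0.52 ± 0.06, edgeR adjusted p = 1.14e-10). The BRM014 libraries lay below both DMSO libraries, and with GC and length offsets the value was -0.22 (edgeR adjusted p = 0.00765).

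HAND2, a basic helix-loop-helix factor of sympathetic neurons, had 1939 and 1952 counts with BRM014, against 2118 and 1461 with DMSO (log2 fold change 0.08 ± 0.09, edgeR adjusted p = 0.695). GATA3, the GATA factor needed for noradrenergic differentiation, had 1113 and 915 counts with BRM014, against 1045 and 834 with DMSO (log2 fold change 0.06 ± 0.10, edgeR adjusted p = 0.804). In both genes the groups overlapped. With GC and length offsets HAND2 was called higher (0.41, edgeR adjusted p = 0.000605).

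**Figure D2:**
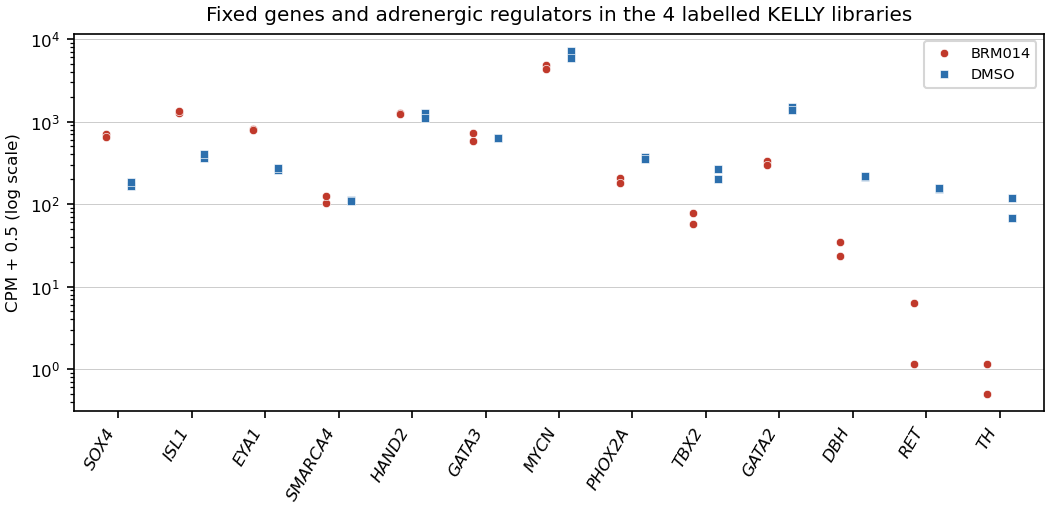
CPM plus 0.5 (log axis) of the fixed genes and leading adrenergic regulators in the KELLY libraries, ordered by fold change, with BRM014 as red circles left and DMSO as blue squares right. SOX4, ISL1 and EYA1 lie above their DMSO libraries, SMARCA4, HAND2 and GATA3 overlap, and GATA2, DBH, RET and TH lie below.

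Of 32 regulators of the mesenchymal state, 18 passed the filter on low counts and 9 had no count in any KELLY library. Of the 18 tested 5 were higher, beside 6.57% of all tested genes, and none was lower, with a median of 0.08. Upper quartile scaling, no low-count filter, and GC and length offsets each gave 4 higher and 1 lower. DESeq2 gave 5 higher and 1 lower. Beside GATA6, FOXC1 and BHLHE41, TWIST1, a basic helix-loop-helix factor of mesoderm and of epithelial-mesenchymal transition, had 668 and 681 counts with BRM014, against 234 and 250 with DMSO (log2 fold change 1.41 ± 0.14, edgeR adjusted p = 4.33e-14). MAML2, a Notch coactivator, had 70 and 70 counts with BRM014, against 29 and 27 with DMSO (log2 fold change 1.26 ± 0.43, edgeR adjusted p = 0.0395), a call lost when any 1 of the libraries was left out. The stromal genes FN1 (66 and 91 counts with BRM014, against 50 and 35 with DMSO; 0.83 ± 0.30) and CD44 (22 and 26 counts with BRM014, against 6 and 9 with DMSO; 1.57 ± 0.90) were not called.

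New RNA for several steps of the catecholamine pathway fell. Of 16 genes 13 were tested, 6 fell and 2 rose, with a median of -0.39; leaving out 1 library gave 3 to 6 that fell, the fewest without DMSO replicate 2, and DESeq2 gave 4. Beside TH, DBH (chromosome 9, 133636363 to 133659329), which converts dopamine to noradrenaline in the vesicle, had 52 and 36 counts with BRM014, against 351 and 284 with DMSO (log2 fold change -2.90 ± 0.28, edgeR adjusted p = 1.53e-14). DBH overlaps an antisense gene, and as the strand setting is not given, reads of the pair cannot be told apart. CYB561, the cytochrome that supplies electrons to DBH, had 532 and 485 counts with BRM014, against 1855 and 1463 with DMSO (log2 fold change -1.76 ± 0.13, edgeR adjusted p = 1.20e-19). SLC18A2, the vesicular monoamine transporter VMAT2, had 118 and 135 counts with BRM014, against 254 and 248 with DMSO (log2 fold change -1.06 ± 0.25, edgeR adjusted p = 0.00135), a call lost without DMSO replicate 2 (-0.90, edgeR adjusted p = 0.0624). Both BRM014 libraries of these genes were below both DMSO libraries. In the opposite direction, MAOA, the mitochondrial amine oxidase that breaks noradrenaline down, had 555 and 472 counts with BRM014, against 99 and 90 with DMSO (log2 fold change 2.38 ± 0.21, edgeR adjusted p = 9.31e-17). GCH1, which makes the tetrahydrobiopterin that TH needs, had 389 and 430 counts with BRM014, against 114 and 102 with DMSO (log2 fold change 1.86 ± 0.22, edgeR adjusted p = 8.27e-11). Both were at least 3-fold higher in both BRM014 libraries than in either DMSO library.

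Of 20 secretory granule genes tested, 2 fell and 1 rose, so that 3 of 20 were called beside 11.6% of all tested genes. CHGA, chromogranin A, the core protein of dense granules, had 25 and 51 counts with BRM014, against 312 and 243 with DMSO (log2 fold change -2.92 ± 0.35, edgeR adjusted p = 7.32e-11). SCG2, secretogranin II, had 99 and 134 counts with BRM014, against 320 and 189 with DMSO (log2 fold change -1.16 ± 0.19, edgeR adjusted p = 1.38e-06). SYT1, the calcium sensor of synaptic vesicles, had 590 and 492 counts with BRM014, against 217 and 161 with DMSO (log2 fold change 1.47 ± 0.12, edgeR adjusted p = 5.43e-19). The unlabelled libraries held 5.23% of the DMSO counts of CHGA.

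The promoters of CHGA and SLC18A2 are shown because both genes fell and both windows of 250 bases hold the cyclic AMP response element TGACGTCA. It is the palindromic site of CREB-type factors. The sequences are RefSeq's on GRCh38.p14, both on the plus strand, chr14:92922900-92923149 and chr10:117240864-117241113, with the element in capitals.
CHGA: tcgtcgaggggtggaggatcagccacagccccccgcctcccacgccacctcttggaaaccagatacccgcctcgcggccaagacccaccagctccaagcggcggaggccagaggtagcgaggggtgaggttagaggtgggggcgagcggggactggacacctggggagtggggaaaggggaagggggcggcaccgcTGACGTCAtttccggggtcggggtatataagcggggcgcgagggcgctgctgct
SLC18A2: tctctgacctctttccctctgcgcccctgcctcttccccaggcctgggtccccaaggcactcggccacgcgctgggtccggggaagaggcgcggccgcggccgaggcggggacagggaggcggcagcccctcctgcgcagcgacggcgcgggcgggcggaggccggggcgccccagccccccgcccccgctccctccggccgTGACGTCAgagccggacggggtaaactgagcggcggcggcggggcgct
RefSeq's span of CHGA begins at 92922664, before its window, so that window is not upstream of the whole gene. The window of SLC18A2 ends at the start of its gene. The element begins 54 bases before the end of the window in CHGA and 48 bases before it in SLC18A2. Searched on both strands, it was in 2.69% of the 670 promoters of higher genes, 3.95% of the 481 of lower genes and 3.06% of the 9826 of all tested genes for which a promoter could be matched. The AP-1 site TGANTCA was in 2.54%, 2.70% and 3.45% of the same sets, and the E-box CACGTG in 7.91%, 9.36% and 9.08%. A match is a description of the letters and not a site shown to be bound.

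Neuropeptide genes fell where they changed. Of 32 peptides and receptors 13 were tested, 4 fell and none rose, with a median of -0.78, and 4 also fell in each fit without 1 of the libraries, but 2 in DESeq2. Besides CARTPT, SSTR2, a somatostatin receptor, had 6 and 5 counts with BRM014, against 42 and 34 with DMSO (log2 fold change -2.81 ± 0.33, edgeR adjusted p = 3.65e-11). GAL, the precursor of galanin, had 12 and 4 counts with BRM014, against 70 and 44 with DMSO (log2 fold change -2.85 ± 0.47, edgeR adjusted p = 1.24e-06). CRH, corticotropin-releasing hormone, had 0 and 0 counts with BRM014, against 32 and 40 with DMSO, at least 24.9-fold lower with the same floor (edgeR adjusted p = 0.000279). BRM014 libraries of these genes held 12 counts or fewer. Among 16 tested receptors for amines, acetylcholine and purines, 3 fell and 2 rose, whereas 1 fell in DESeq2. ADRA2A, the inhibitory alpha-2A adrenergic receptor that sympathetic cells carry, had 10 and 16 counts with BRM014, against 89 and 63 with DMSO (log2 fold change -2.58 ± 0.41, edgeR adjusted p = 5.35e-07). CHRNB4, a subunit of the nicotinic receptor of sympathetic ganglia, had 421 and 393 counts with BRM014, against 249 and 185 with DMSO (log2 fold change 0.86 ± 0.13, edgeR adjusted p = 3.18e-07). The calls of DRD2 (-1.56 ± 0.54, lower) and CHRNA5 (0.36 ± 0.12, higher) did not hold. That of DRD2 was lost without any 1 of the libraries and in DESeq2. That of CHRNA5 was lost without either BRM014 library, without DMSO replicate 1 (0.22, edgeR adjusted p = 0.521), and with other scalings.

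Receptor kinase genes changed in both directions. In the RET and neurotrophin list 9 of 19 genes were tested, 4 fell and 1 rose; without 1 of the libraries 2 or 3 fell. RET and its co-receptor GFRA2 fell in each of these fits. GDNF, a ligand of RET, had 5 and 4 counts with BRM014, against 49 and 27 with DMSO (-3.06 ± 1.01), a call lost in all of them. SORCS1, a sorting receptor of the sortilin family, had 152 and 159 counts with BRM014, against 64 and 70 with DMSO (log2 fold change 1.15 ± 0.24, edgeR adjusted p = 0.000239). Of 21 other receptor kinases tested, FGFR2, a receptor for fibroblast growth factors, fell (27 and 19 counts with BRM014, against 111 and 105 with DMSO; log2 fold change -2.29 ± 0.31, edgeR adjusted p = 1.03e-08), and IGF1R, the receptor for insulin-like growth factors, rose (285 and 298 counts with BRM014, against 159 and 101 with DMSO; log2 fold change 1.12 ± 0.18, edgeR adjusted p = 5.16e-07). ROR1, a Wnt5a receptor, rose as well (128 and 107 counts with BRM014, against 35 and 18 with DMSO; log2 fold change 2.11 ± 0.38, edgeR adjusted p = 1.32e-05). In these 3 genes the groups did not overlap, as in nearly all called genes. They were the only calls among the 21, beside 11.6% of all tested genes.

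Genes that respond to ERK signalling also split. Of 16 tested, 3 rose and 2 fell. The ETS factors ETV1 (469 and 526 counts with BRM014, against 112 and 102 with DMSO; log2 fold change 2.15 ± 0.24, edgeR adjusted p = 5.98e-12) and ETV5 (554 and 540 counts with BRM014, against 251 and 173 with DMSO; log2 fold change 1.32 ± 0.16, edgeR adjusted p = 3.24e-10) rose, as did DUSP6, the ERK phosphatase (297 and 279 counts with BRM014, against 144 and 105 with DMSO; log2 fold change 1.16 ± 0.28, edgeR adjusted p = 0.00133). CCND1, cyclin D1, had 514 and 562 counts with BRM014, against 1114 and 944 with DMSO (log2 fold change -0.99 ± 0.08, edgeR adjusted p = 4.74e-18). DUSP4, a nuclear phosphatase of ERK and JNK, had 81 and 104 counts with BRM014, against 238 and 149 with DMSO (log2 fold change -1.10 ± 0.22, edgeR adjusted p = 0.000122). Of 15 immediate early and AP-1 genes tested, ATF3 (-1.81 ± 0.52) and IER5 (-0.85 ± 0.27) were lower and none was higher. The call of ATF3 was lost without BRM014 replicate 1 or DMSO replicate 2 (edgeR adjusted p = 0.171 and 0.0854). That of IER5 was lost without either BRM014 library or without DMSO replicate 1 (-0.52, edgeR adjusted p = 0.493).

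Genes of neuronal wiring and cell contact changed in both directions. Of 45 axon guidance genes tested, 16 rose and 6 fell, with a median of 0.32. NRP2, a receptor for class 3 semaphorins and VEGF, had 364 and 368 counts with BRM014, against 63 and 59 with DMSO (log2 fold change 2.52 ± 0.18, edgeR adjusted p = 1.64e-21). CNTN1, a neuronal contactin, had 388 and 439 counts with BRM014, against 81 and 77 with DMSO (log2 fold change 2.33 ± 0.17, edgeR adjusted p = 2.41e-21). EFNA5, a repulsive ephrin, had 295 and 323 counts with BRM014, against 75 and 50 with DMSO (log2 fold change 2.26 ± 0.18, edgeR adjusted p = 1.60e-18). ROBO1, the receptor for Slit proteins, followed with 377 and 320 counts with BRM014, against 96 and 96 with DMSO (log2 fold change 1.80 ± 0.19, edgeR adjusted p = 1.56e-12). All of these BRM014 libraries lay more than 3-fold above both DMSO libraries in raw counts. Semaphorin co-receptors were split. PLXNA1 fell, with 109 and 114 counts with BRM014, against 678 and 323 with DMSO (log2 fold change -2.18 ± 0.22, edgeR adjusted p = 4.12e-14), as did PLXNA2 above. PLXNA4 rose, with 95 and 79 counts with BRM014, against 6 and 13 with DMSO (log2 fold change 3.10 ± 0.47, edgeR adjusted p = 2.05e-07).

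Of 22 cadherins and protocadherins tested 8 rose and 2 fell, with a median of 0.75. PCDH19, a delta-2 protocadherin of neurons, had 905 and 891 counts with BRM014, against 129 and 125 with DMSO (log2 fold change 2.76 ± 0.21, edgeR adjusted p = 2.27e-20). PCDH17, of the same family, had 340 and 327 counts with BRM014, against 49 and 29 with DMSO (log2 fold change 3.05 ± 0.33, edgeR adjusted p = 1.14e-12). PCDH18 (2.45 ± 0.38), CDH7 (2.42 ± 0.33), the giant cadherin FAT4 (1.95 ± 0.31) and CDH2, N-cadherin (0.74 ± 0.13), also rose. Of 26 integrin and focal adhesion genes tested 6 fell and 2 rose. Beside FLNC, ITGB5, an integrin subunit that binds vitronectin, had 28 and 41 counts with BRM014, against 161 and 177 with DMSO (log2 fold change -2.37 ± 0.44, edgeR adjusted p = 1.99e-05). TNS1, a tensin that links integrins to actin, had 17 and 23 counts with BRM014, against 76 and 75 with DMSO (log2 fold change -1.98 ± 0.45, edgeR adjusted p = 0.000701). TPM1, an actin-binding tropomyosin, had 79 and 60 counts with BRM014, against 172 and 122 with DMSO (log2 fold change -1.12 ± 0.24, edgeR adjusted p = 0.000366). FLNA, filamin A, had 89 and 72 counts with BRM014, against 295 and 112 with DMSO (log2 fold change -1.34 ± 0.24, edgeR adjusted p = 9.50e-06), but its call and that of ITGB8, higher with BRM014 (1.63 ± 0.36), were lost without DMSO replicate 1 (-0.71 and 0.89; edgeR adjusted p = 0.161 and 0.226). Without DMSO replicate 2 ITGB8 was at 2.80. Of 30 matrix genes tested, LAMA4, TIMP3 and ADAMTS5 rose and SPARC fell, near the shares of all tested genes (6.57% higher, 4.98% lower). ADAMTS5 (2.96 ± 0.65) lost its call without BRM014 replicate 1 and SPARC (-1.66 ± 0.53) without any 1 of the libraries.

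In the BMP and TGF-beta pathway 6 of 27 tested genes rose and 1 fell, with a median of 0.43. The risers included its target genes, the inhibitors of basic helix-loop-helix factors: ID4 had 118 and 74 counts with BRM014, against 15 and 12 with DMSO (log2 fold change 2.77 ± 0.34, edgeR adjusted p = 2.66e-10). ID2 had 2067 and 1870 counts with BRM014, against 1371 and 1023 with DMSO (log2 fold change 0.67 ± 0.09, edgeR adjusted p = 1.70e-08) and ID3 762 and 735 counts with BRM014, against 553 and 454 with DMSO (log2 fold change 0.52 ± 0.13, edgeR adjusted p = 0.00253). BMPR2, the type II receptor, had 434 and 285 counts with BRM014, against 198 and 110 with DMSO (log2 fold change 1.19 ± 0.16, edgeR adjusted p = 2.90e-09), and the BMP-regulated transducer SMAD9 567 and 542 counts with BRM014, against 409 and 258 with DMSO (log2 fold change 0.69 ± 0.11, edgeR adjusted p = 4.83e-07). The groups did not overlap in any of these genes, as in nearly all called genes. BMPR1A (0.65 ± 0.17) lost its call without BRM014 replicate 1 or DMSO replicate 1 and with GC and length offsets (0.32, 0.47 and 0.34).

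The Wnt list had 6 genes higher and 6 lower of 35 tested. DKK1 (chromosome 10, 52314281 to 52317657), the secreted antagonist of Wnt co-receptors, was among the most counted genes that rose, with 2494 and 2340 counts with BRM014, against 299 and 317 with DMSO (log2 fold change 2.90 ± 0.12, edgeR adjusted p = 2.95e-38). Scaled to library size, both BRM014 libraries were more than 6-fold above both DMSO libraries. FZD3, a Frizzled receptor of axon growth, had 402 and 399 counts with BRM014, against 216 and 199 with DMSO (log2 fold change 0.89 ± 0.14, edgeR adjusted p = 6.52e-07). Of the lower genes, TCF7 (8 and 17 counts with BRM014, against 77 and 28 with DMSO; -2.06 ± 0.51) and WNT5B (0 and 1 counts with BRM014, against 11 and 12 with DMSO) lost their calls without BRM014 replicate 1, and TCF7 also without DMSO replicate 1 (-1.39, edgeR adjusted p = 0.244). In the fits without 1 library 2 to 4 genes of the list were lower. In the Notch list, of 17 tested, HEY1, a target of Notch and BMP, rose (254 and 225 counts with BRM014, against 96 and 45 with DMSO, log2 fold change 1.74 ± 0.30, edgeR adjusted p = 3.15e-06). LFNG, a glycosyltransferase that modifies Notch receptors, fell (9 and 9 counts with BRM014, against 68 and 42 with DMSO, log2 fold change -2.63 ± 0.53, edgeR adjusted p = 0.000116). In the retinoid list, of 13 tested, RARA, the retinoic acid receptor alpha, fell (12 and 24 counts with BRM014, against 126 and 50 with DMSO, log2 fold change -2.30 ± 0.34, edgeR adjusted p = 1.07e-07). The Notch list had 2 genes higher and 1 lower and the retinoid list 1 and 1, beside 6.57% and 4.98% of all tested genes.

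Of 16 genes for IGF and VEGF ligands and binders tested, 5 fell and 2 rose. IGF2, the fetal growth factor, had 316 and 297 counts with BRM014, against 1287 and 689 with DMSO (log2 fold change -1.71 ± 0.18, edgeR adjusted p = 9.75e-13), with 10.9% of its DMSO level also present in unlabelled libraries. STC1, stanniocalcin 1, had 6 and 2 counts with BRM014, against 31 and 24 with DMSO (log2 fold change -2.79 ± 0.48, edgeR adjusted p = 3.98e-06). VEGFA fell (53 and 50 counts with BRM014, against 190 and 102 with DMSO; -1.53 ± 0.35), a call lost without DMSO replicate 1 (-1.22, edgeR adjusted p = 0.0732). Among ion channels CACNA2D1, an auxiliary calcium channel subunit (297 and 259 counts with BRM014, against 154 and 118 with DMSO; log2 fold change 0.98 ± 0.14, edgeR adjusted p = 3.19e-08), and SCN9A, the sodium channel Nav1.7 (64 and 46 counts with BRM014, against 14 and 7 with DMSO; log2 fold change 2.34 ± 0.46, edgeR adjusted p = 6.37e-05), rose. Of 20 potassium channel genes tested 3 fell and 2 rose, and without DMSO replicate 1 none of the 5 calls was kept in either direction.

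New RNA for DNA replication was lower. Of 38 replication and E2F genes, all tested, 18 fell and none rose, with a median of -0.54. The count of falls was 10 to 13 without 1 of the libraries, 13 with GC and length offsets and 21 with upper quartile scaling. RRM2, a subunit of ribonucleotide reductase, had 900 and 856 counts with BRM014, against 1386 and 1289 with DMSO (log2 fold change -0.67 ± 0.10, edgeR adjusted p = 1.54e-07). MCM3, a subunit of the replicative helicase, had 309 and 356 counts with BRM014, against 574 and 462 with DMSO (log2 fold change -0.69 ± 0.13, edgeR adjusted p = 4.73e-05), its partner MCM6 104 and 125 counts with BRM014, against 229 and 175 with DMSO (log2 fold change -0.87 ± 0.18, edgeR adjusted p = 0.000166) and ORC6, of the origin recognition complex, 156 and 158 counts with BRM014, against 312 and 257 with DMSO (log2 fold change -0.91 ± 0.16, edgeR adjusted p = 1.09e-05). PCNA, the sliding clamp, had 265 and 213 counts with BRM014, against 351 and 381 with DMSO (log2 fold change -0.69 ± 0.15, edgeR adjusted p = 0.000438), and lost its call without DMSO replicate 2 (-0.45, edgeR adjusted p = 0.118). These changes were small beside those of TH or RET, under 2-fold in each gene. The groups did not overlap, as in nearly all called genes.

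The promoters of MCM3 and PCNA are shown because both hold the E2F site TTTCCCGC, the element through which cell cycle genes are timed. They are RefSeq's on GRCh38.p14 minus strand, chr6:52284743-52284992 and chr20:5126623-5126872, written 5′ to 3′ in the direction of transcription with the element in capitals. In PCNA it lies on the opposite strand and so reads as its reverse complement.
MCM3: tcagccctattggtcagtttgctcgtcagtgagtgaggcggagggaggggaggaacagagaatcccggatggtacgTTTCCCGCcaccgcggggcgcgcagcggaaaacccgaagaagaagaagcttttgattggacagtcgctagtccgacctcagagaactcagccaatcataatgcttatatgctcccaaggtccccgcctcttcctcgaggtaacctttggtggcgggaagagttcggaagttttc
PCNA: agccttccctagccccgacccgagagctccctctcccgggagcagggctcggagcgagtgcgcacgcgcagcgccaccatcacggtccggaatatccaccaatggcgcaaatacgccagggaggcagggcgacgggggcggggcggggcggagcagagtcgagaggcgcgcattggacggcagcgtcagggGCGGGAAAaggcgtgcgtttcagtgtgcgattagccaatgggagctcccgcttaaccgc
The element begins 174 bases before the gene start in MCM3 and 59 before it in PCNA. It was in 9 of the 33 list promoters that could be matched (27.3%), in 3.53% of the promoters of lower genes, in 1.64% of those of higher genes and in 2.23% of all tested. This describes the letters, and the list was built in part from E2F targets.

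Mitotic genes changed less clearly. Of 32 tested 4 fell and none rose, with a median of -0.18; 1 to 3 fell without 1 of the libraries and 7 with GC and length offsets. MKI67, the proliferation marker Ki-67, had 610 and 585 counts with BRM014, against 989 and 731 with DMSO (log2 fold change -0.57 ± 0.10, edgeR adjusted p = 5.72e-06). Of 12 regulators of the G1 phase tested, 3 fell and none rose: CCND1 above, its partner kinase CDK6 (1413 and 1422 counts with BRM014, against 2452 and 1857 with DMSO; log2 fold change -0.65 ± 0.08, edgeR adjusted p = 3.11e-10), and CDKN1A, the CDK inhibitor p21. CDKN1A had 40 and 36 counts with BRM014, against 269 and 241 with DMSO (log2 fold change -2.80 ± 0.30, edgeR adjusted p = 1.04e-12), so that inhibitor and cyclin fell together. Of 25 p53 targets tested 7 fell and 2 rose, with a median of -0.49; 3 to 5 fell without 1 of the libraries. SESN2, a sestrin induced by p53 and ATF4, had 49 and 70 counts with BRM014, against 212 and 123 with DMSO (log2 fold change -1.52 ± 0.30, edgeR adjusted p = 9.09e-05). AEN, a nuclease, had 319 and 341 counts with BRM014, against 536 and 474 with DMSO (log2 fold change -0.67 ± 0.12, edgeR adjusted p = 1.39e-05). TP53INP1 (398 and 340 counts with BRM014, against 159 and 109 with DMSO; 1.42 ± 0.16) and PLK2 (237 and 221 counts with BRM014, against 75 and 66 with DMSO; 1.64 ± 0.23), both also p53 targets, rose. In the BCL2 family 4 of 14 tested genes were lower (HRK, PMAIP1, BCL2 and BAX) and 1 higher (BCL2L11), and each of these calls was lost without at least 1 of the libraries.

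Among housekeeping functions, ribosomal protein genes fell in 12 of 74 tested and rose in none, with a median of -0.38. Only 3 to 6 fell without 1 of the libraries and 4 with GC and length offsets. Reads of ribosomal protein genes may be shared with their pseudogenes. Of 30 nucleolar genes 3 fell and none rose, beside 4.98% and 6.57% of all tested genes. Those that fell included NCL, nucleolin (962 and 1047 counts with BRM014, against 1504 and 1168 with DMSO, log2 fold change -0.46 ± 0.09, edgeR adjusted p = 7.06e-05), and NOLC1 (277 and 330 counts with BRM014, against 516 and 378 with DMSO, log2 fold change -0.61 ± 0.13, edgeR adjusted p = 0.000473). Heat shock chaperones fell in 8 of 25 and rose in none, or 4 to 5 without 1 of the libraries. HSPA8, the constitutive HSP70, had 1198 and 1069 counts with BRM014, against 1776 and 1546 with DMSO (log2 fold change -0.61 ± 0.09, edgeR adjusted p = 6.39e-08). HSP90AB1, the constitutive HSP90, had 1606 and 1651 counts with BRM014, against 2169 and 1838 with DMSO (log2 fold change -0.36 ± 0.08, edgeR adjusted p = 0.00101). The unfolded protein and ATF4 list had 6 of 32 lower and none higher, with a median of -0.40. HSPA5, the chaperone BiP of the endoplasmic reticulum, had 571 and 495 counts with BRM014, against 1216 and 715 with DMSO (log2 fold change -0.89 ± 0.12, edgeR adjusted p = 5.14e-09). XBP1, a transcription factor of the unfolded protein response, had 236 and 204 counts with BRM014, against 539 and 319 with DMSO (edgeR adjusted p = 6.05e-07). SLC7A5, an amino acid transporter, had 154 and 179 counts with BRM014, against 373 and 316 with DMSO (log2 fold change -1.11 ± 0.17, edgeR adjusted p = 1.52e-07). BRM014 and DMSO libraries were apart in each of these genes, as in nearly all called genes.

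Metabolic genes went in opposite directions by pathway. Glycolysis and hypoxia genes fell in 6 of 25 and rose in 1. With GC and length offsets 4 fell and 1 rose, and with upper quartile scaling 8 fell and none rose. SLC2A1, the glucose transporter GLUT1, had 112 and 106 counts with BRM014, against 442 and 355 with DMSO (log2 fold change -1.92 ± 0.18, edgeR adjusted p = 7.70e-15). GAPDH had 657 and 666 counts with BRM014, against 1509 and 1079 with DMSO (log2 fold change -1.01 ± 0.11, edgeR adjusted p = 5.98e-13) and PKM, pyruvate kinase, 296 and 368 counts with BRM014, against 664 and 519 with DMSO (log2 fold change -0.89 ± 0.12, edgeR adjusted p = 3.89e-09). Cholesterol synthesis genes rose in 7 of 25 and fell in none, with a median of 0.32. With GC and length offsets 7 rose and none fell, with upper quartile scaling 6 rose and 1 fell, and in DESeq2 7 rose and 1 fell. STARD4, a carrier of cholesterol, had 1221 and 1252 counts with BRM014, against 693 and 620 with DMSO (log2 fold change 0.85 ± 0.11, edgeR adjusted p = 6.43e-10). CYP51A1, lanosterol demethylase, had 650 and 642 counts with BRM014, against 453 and 315 with DMSO (log2 fold change 0.71 ± 0.13, edgeR adjusted p = 1.16e-05) and MSMO1, a sterol methyl oxidase, 738 and 831 counts with BRM014, against 603 and 431 with DMSO (log2 fold change 0.56 ± 0.12, edgeR adjusted p = 0.000285).

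The subunits of the inhibited complexes were themselves affected in part. Of 29 BAF subunit genes tested 6 rose and 1 fell, and with GC and length offsets 5 rose and none fell. BICRAL, of the non-canonical GBAF complex, had 188 and 289 counts with BRM014, against 96 and 52 with DMSO (log2 fold change 1.65 ± 0.21, edgeR adjusted p = 5.93e-10). ARID2, of PBAF, had 541 and 533 counts with BRM014, against 331 and 214 with DMSO (log2 fold change 0.94 ± 0.12, edgeR adjusted p = 1.77e-09). ARID1B, of canonical BAF, had 304 and 341 counts with BRM014, against 205 and 151 with DMSO (log2 fold change 0.81 ± 0.14, edgeR adjusted p = 7.65e-06). BCL11A (0.98 ± 0.23) and ARID1A (0.42 ± 0.11) rose too, and SMARCC1 (0.50 ± 0.13) lost its call without BRM014 replicate 2 (edgeR adjusted p = 0.102), without DMSO replicate 2 (edgeR adjusted p = 0.0578) and with GC and length offsets (edgeR adjusted p = 0.0687). Of 31 Polycomb subunits tested 2 rose and 1 fell, near the shares of all tested genes (6.57% and 4.98%). Both rises and the fall, of CBX2, lost their call with GC and length offsets (CBX2 -0.25, edgeR adjusted p = 0.213). CBX2 was at -0.55 in the main fit and at -0.29 without DMSO replicate 1. EZH2, the histone H3 lysine methyltransferase, was at 420 and 421 counts with BRM014, against 575 and 428 with DMSO (-0.30 ± 0.13, edgeR adjusted p = 0.134). No call was made among 10 tested HOX genes or 7 tested interferon and MHC class I genes, at the depth their counts allow. B2M, a subunit of MHC class I, had 44 and 26 counts with BRM014, against 20 and 32 with DMSO.

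**Figure D3:**
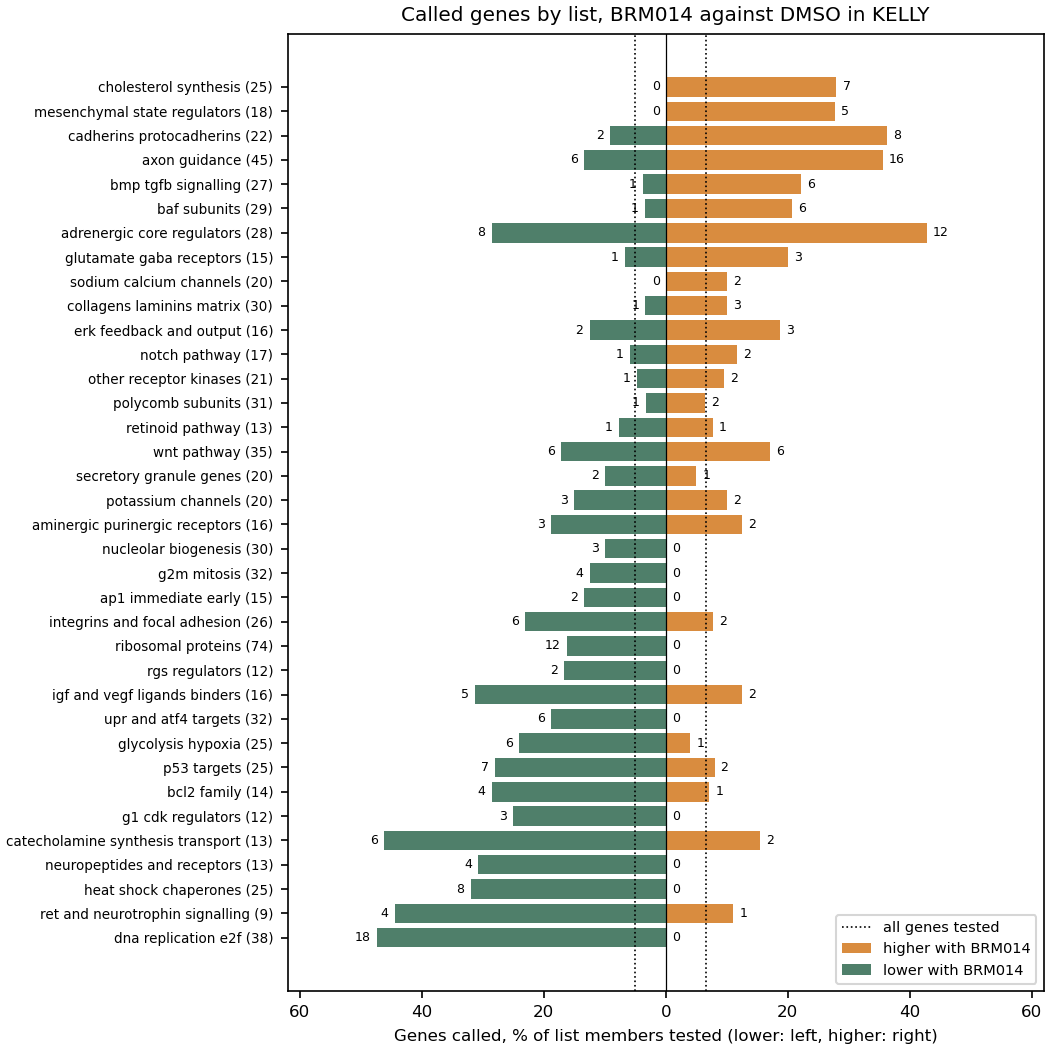
Share of tested members called lower (left, green) and higher (right, orange) with BRM014 in the 36 gene lists with at least 7 tested members and any call; numbers at the bars are genes, numbers in brackets are members tested, and dotted lines mark the shares among all genes tested, 6.57% higher and 4.98% lower. DNA replication genes reach 18 of 38 lower and none higher, cholesterol synthesis 7 of 25 higher and none lower, and adrenergic regulators 12 higher and 8 lower of 28.

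Among the most counted genes the changes were mostly small. Counts were not divided by length here, so this ranking favours long transcripts. Beside ID2 and DKK1, MAB21L1, a neural developmental gene, had 2196 and 2067 counts with BRM014, against 892 and 682 with DMSO (log2 fold change 1.39 ± 0.09, edgeR adjusted p = 3.07e-24). TANC2, a synaptic scaffold, had 1963 and 1970 counts with BRM014, against 1011 and 782 with DMSO (log2 fold change 1.08 ± 0.12, edgeR adjusted p = 6.32e-12) and CEP44, a centriole protein, 1678 and 1814 counts with BRM014, against 1034 and 846 with DMSO (log2 fold change 0.84 ± 0.10, edgeR adjusted p = 6.47e-11). The calls of MAP1B (0.25 ± 0.07), TCF4 (0.41 ± 0.09) and TNPO1 (0.47 ± 0.09) were lost with GC and length offsets, at 0.00, 0.08 and 0.09, and that of MAP1B also without BRM014 replicate 1 or DMSO replicate 2. On the lower side INSM2, a zinc-finger repressor of neuroendocrine cells, had 1709 and 1831 counts with BRM014, against 4173 and 3460 with DMSO (log2 fold change -1.17 ± 0.10, edgeR adjusted p = 2.79e-16). RGS5, a regulator of G protein signalling, had 2412 and 2214 counts with BRM014, against 3421 and 2902 with DMSO (log2 fold change -0.51 ± 0.12, edgeR adjusted p = 0.000865), a call that DESeq2 did not make. The splicing factor SRSF2 (-0.43 ± 0.09) and the helicases DDX5 (-0.31 ± 0.08) and EIF4A2 (-0.29 ± 0.09) were lower by less than 1.5-fold, and EIF4A2 kept its call only without DMSO replicate 1 among the fits without 1 library (edgeR adjusted p = 0.155, 0.0841 and 0.261 in the others). RNR2 had 2547 and 2351 counts with BRM014, against 17270 and 5671 with DMSO (log2 fold change -2.21 ± 0.12, edgeR adjusted p = 3.50e-29). Both DMSO libraries were above both BRM014 libraries but differed about 3-fold from each other in raw counts. Without DMSO replicate 1 the value was -1.44 and still called.

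The effect in KELLY was set against the mean effect in IMR-32 and SK-N-DZ, which have their own DMSO libraries. In both of those lines the BRM014 libraries were less deep, so raw counts there overstate falls and understate rises. In IMR-32 they held 741970 and 775064 gene counts, against 1438139 and 1148208 with DMSO. In SK-N-DZ they held 724913 and 758288, against 1589230 and 1740475 with DMSO. Log2 fold changes are scaled for depth. The difference was called in 465 genes (3.62% of those tested), 290 (2.26%) with a higher effect in KELLY and 175 (1.36%) with a lower one. Of the 845 genes that rose in KELLY, 145 (17.2%) had a called higher effect there and 16 a lower one; of the 640 that fell, 69 (10.8%) had a lower effect and 11 a higher one. In 42 of those rising and 21 of those falling genes, both other lines had the opposite sign. For the genes called higher in KELLY the median log2 fold change was 0.89 in KELLY, 0.44 in IMR-32 and 0.59 in SK-N-DZ, and for those called lower it was -1.14, -0.62 and -0.87. The KELLY medians are set by the call.

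The rise of ISL1 was larger in KELLY than the mean of the other lines. Its log2 fold change of 1.79 stood beside -0.42 in IMR-32 and 0.51 in SK-N-DZ (difference 1.75 ± 0.13, edgeR adjusted p = 8.52e-19). MYCN had log2 fold changes of -0.52 in KELLY, -0.45 in IMR-32 and 0.44 in SK-N-DZ (difference -0.51 ± 0.08, edgeR adjusted p = 5.46e-07). PHOX2A differed by -0.59 ± 0.15, edgeR adjusted p = 0.00662, which was lost without BRM014 replicate 2 or DMSO replicate 1. TH and RET did not pass this test (edgeR adjusted p = 0.997 and 0.927), in which no size is given because groups in the other lines held no count. RET had 0 and 0 counts with BRM014, against 2 and 4 with DMSO, in IMR-32. It was near 0 with BRM014 in another line as well, at 1 and 1 with BRM014, against 166 and 250 with DMSO, in SK-N-DZ.

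LAMA4 passed the filter through KELLY. The other lines hardly held any of it, at 1 and 0 counts with BRM014, against 2 and 1 with DMSO, in IMR-32, and 0 and 0 with BRM014, against 2 and 3 with DMSO, in SK-N-DZ, so that no size of a difference is given. TIMP3 rose in KELLY, whereas it had 131 and 146 counts with BRM014, against 642 and 431 with DMSO, in IMR-32 (log2 fold change -1.12). In SK-N-DZ it had 2 and 0 counts with BRM014, against 3 and 2 with DMSO, too few to give a direction (log2 fold change -0.14). Its difference, to which this value contributes, was 4.18 ± 0.68 (edgeR adjusted p = 4.91e-06). ROR1 likewise rose in KELLY and had 9 and 8 counts with BRM014, against 55 and 41 with DMSO, in IMR-32 (log2 fold change -1.67). Its log2 fold change in SK-N-DZ was -0.16 (difference 3.02 ± 0.50, edgeR adjusted p = 6.66e-06). In both genes the IMR-32 libraries with BRM014 were below both of those with DMSO, the reverse of KELLY. PLXNA4, a semaphorin co-receptor, had 95 and 79 counts with BRM014, against 6 and 13 with DMSO in KELLY, 9 and 8 counts with BRM014, against 25 and 18 with DMSO, in IMR-32, and 5 and 2 with BRM014, against 7 and 8 with DMSO, in SK-N-DZ (difference 3.31 ± 0.66, edgeR adjusted p = 0.000257). Scaled for depth, its log2 fold changes were -0.51 in IMR-32 and 0.08 in SK-N-DZ. LRRTM2, a synaptic organiser, had 77 and 101 counts with BRM014, against 8 and 13 with DMSO in KELLY, 17 and 26 counts with BRM014, against 45 and 22 with DMSO, in IMR-32, and 8 and 9 with BRM014, against 12 and 26 with DMSO, in SK-N-DZ (difference 2.89 ± 0.54, edgeR adjusted p = 9.53e-05). Scaled for depth, LRRTM2 hardly moved in the other lines, with log2 fold changes of 0.20 in IMR-32 and 0.02 in SK-N-DZ. CCBE1, a lymphangiogenic matrix protein (54 and 55 counts with BRM014, against 17 and 15 with DMSO in KELLY; difference 3.08 ± 0.91, edgeR adjusted p = 0.0317), lost both its calls without any 1 of the KELLY libraries.

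In the other direction, GFRA2 had 3 and 8 counts with BRM014, against 83 and 57 with DMSO, in KELLY, 98 and 97 counts with BRM014, against 266 and 215 with DMSO, in IMR-32, and 272 and 286 with BRM014, against 633 and 827 with DMSO, in SK-N-DZ (difference -3.34 ± 0.37, edgeR adjusted p = 1.88e-11). Scaled for depth, its log2 fold changes were -0.48 in IMR-32 and -0.21 in SK-N-DZ. KLHDC8B had 16 and 23 counts with BRM014, against 203 and 129 with DMSO in KELLY, 6 and 9 counts with BRM014, against 5 and 1 with DMSO, in IMR-32, and 3 and 7 with BRM014, against 37 and 46 with DMSO, in SK-N-DZ (difference -3.24 ± 0.65, edgeR adjusted p = 0.000354). For KLHDC8B the log2 fold change was 2.11 in IMR-32, from few counts, and -1.86 in SK-N-DZ. SHD had log2 fold changes of -6.41 in KELLY, -2.95 in IMR-32 and -2.36 in SK-N-DZ, and its difference of -3.75 was lost without BRM014 replicate 2 (-2.84, edgeR adjusted p = 0.0927). PCDH1, a protocadherin, had 44 and 39 counts with BRM014, against 178 and 85 with DMSO in KELLY and log2 fold changes of 1.28 in IMR-32 and 0.05 in SK-N-DZ (difference -2.35 ± 0.43, edgeR adjusted p = 5.85e-05). The IMR-32 value rests on 13 and 15 counts with BRM014, against 7 and 13 with DMSO. MID1, a microtubule-bound ubiquitin ligase, had 50 and 59 counts with BRM014, against 125 and 133 with DMSO in KELLY and log2 fold changes of 0.92 in IMR-32 and 1.17 in SK-N-DZ (difference -2.36 ± 0.57, edgeR adjusted p = 0.00469). Its values outside KELLY rest on few counts. They were 9 and 23 with BRM014, against 20 and 10 with DMSO, in IMR-32, and 10 and 6, against 4 and 12, in SK-N-DZ. The difference of MID1 was lost without DMSO replicate 2, and its call in KELLY without BRM014 replicate 1, BRM014 replicate 2 or DMSO replicate 2. LHX9, a LIM-homeobox factor, rose in KELLY (94 and 115 counts with BRM014, against 45 and 30 with DMSO). In SK-N-DZ its BRM014 libraries held 25 and 13 counts and DMSO libraries none, so that no size of its difference is given.

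**Figure D4:**
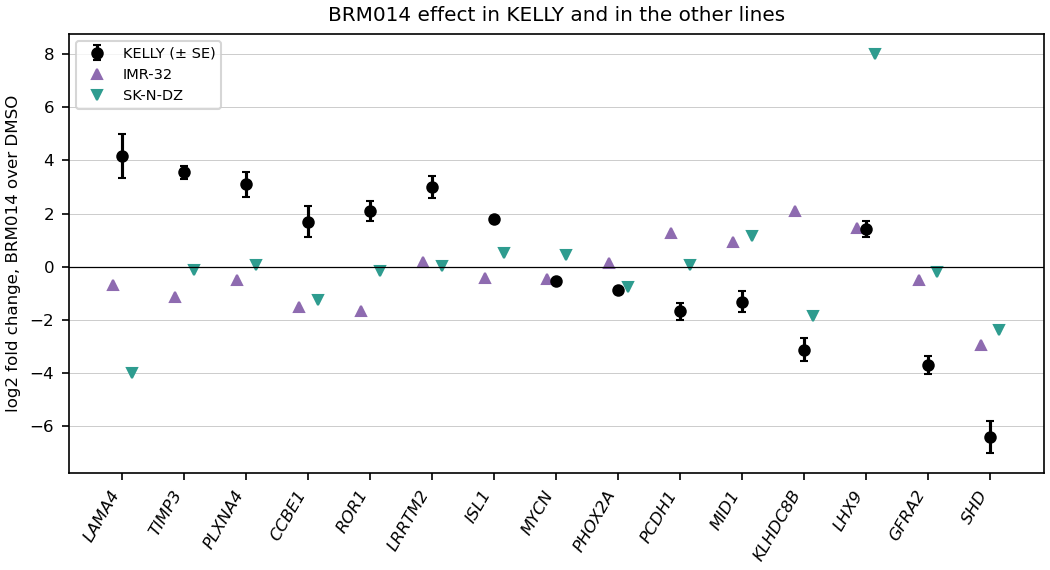
Log2 fold change of BRM014 over DMSO in KELLY (black circles with SE bars), IMR-32 (purple triangles up) and SK-N-DZ (green triangles down) for the genes with the widest called differences and the fixed genes with one. TIMP3 and ROR1 are above 0 in KELLY, below it in IMR-32 and close to it in SK-N-DZ, and LHX9 is above 0 in all lines. TIMP3 had too few counts in SK-N-DZ to give a direction. The LAMA4 and LHX9 values in SK-N-DZ are fitted with a group that held no count and do not measure size.

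Over all tested genes the difference test called 2.26% with a higher effect in KELLY and 1.36% with a lower one. The list counts of this test are to be read beside these shares. By list, it called 11 of 45 axon guidance genes with a higher effect in KELLY and 1 with a lower one. Cholesterol synthesis had 8 of 25 higher and none lower, with list medians of 0.32 in KELLY, -0.17 in IMR-32 and -0.30 in SK-N-DZ. DNA replication had 4 of 38 with a higher effect, that is a smaller fall, with medians of -0.54, -0.85 and -1.07. Of the 28 adrenergic regulators the effect was higher in 7 and lower in 5.

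The direction of change went with the make-up of the transcript. Spearman's rho between log2 fold change and the GC content of the longest annotated transcript was -0.338 over 12490 genes, with its thymine content 0.318 and with its length 0.211. This is across genes, which are not independent replicates. 4sU enters RNA in place of uridine, so composition is shared with the measurement itself. In the quintile of genes with the lowest GC content (27.3% to 40.7%) 14.1% were higher and 1.88% lower, and in the highest quintile (57.6% to 75.2%) 0.761% were higher and 9.53% lower. Genes that rose had a median GC content of 42.1% and a median gene span of 93741 bases, against 54.5% and 20547 bases for genes that fell and 47.7% and 32063 bases for all tested. With offsets for GC content and length in the fit, 1180 genes were called, 577 higher and 603 lower, and 913 of them (61.5% of the calls without offsets) were called in the same direction before. The offsets moved some named values by over 1.5 times without ending the call: CEP44 to 0.55, FZD3 to 0.44, CACNA2D1 to 0.64, STARD4 to 0.54, AEN to -0.43, GAPDH to -0.64 and PKM to -0.55, all closer to 0, and RGS5 to -0.82, CDK6 to -0.99 and ID3 to 0.86, all farther from 0. Whether composition bears on the calls through the chemistry or through the genes themselves was not tested.

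**Figure D5:**
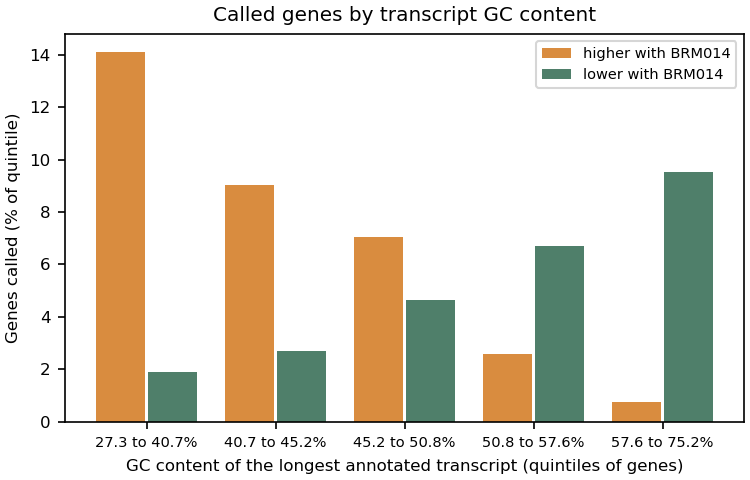
Share of genes called higher (orange) and lower (green) with BRM014 in quintiles of genes by transcript GC content. Higher calls drop from 14.1% in the lowest quintile to 0.761% in the highest, while lower calls climb from 1.88% to 9.53%.

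Calls were unevenly spread over the chromosomes. On chromosome 13, 12.8% of 242 tested genes were higher and 0.826% lower, and on chromosome 4, 11.3% and 2.40%. On chromosomes 16 and 19, 1.28% and 1.30% were higher and 5.68% and 4.49% lower. These shares are of calls without GC and length offsets. Runs of at least 3 neighbouring tested genes called in the same direction numbered 26. How many runs the shares of calls alone would give was not worked out. One run on chromosome 14 (100726892 to 100903722) held the imprinted genes DLK1, MEG3 and RTL1, all lower. DLK1, a Notch-like membrane protein named here after its values were seen, had 76 and 43 counts with BRM014, against 482 and 314 with DMSO. MEG3 had 0 and 2 counts with BRM014 against 10 and 10 with DMSO, and 13 and 0 in the unlabelled libraries. Others were EFNA5, FBXL17, FER and PJA2 on chromosome 5, and HDAC9, TWIST1 and TWISTNB on chromosome 7, all higher.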

How the data were processed

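Messenger RNA was sequenced from cells labelled with 4sU, whose RNA was treated with iodoacetate before poly(dT) capture, per the labels' protocols. Each deposited file holds the authors' raw conversion counts per gene symbol; the submitters' processing notes name hg38, HISAT, HTSeq and DESeq2 without roles. How a read counted as converted, with which annotation and strand, is not given in any source used here. Overlapping, antisense and near-identical genes are therefore uncertain. Summary lines without a gene stayed out; reads without a feature were 51.2% and 54.9% with BRM014, and 48.5% and 55.6% with DMSO.

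The quasi-likelihood test of edgeR 4.0.16 (R 4.3.3) was fitted with TMM scaling to all 16 labelled libraries of 8 groups (8 residual degrees of freedom, biological coefficient of variation 0.143), after filterByExpr had kept 12853 of 28063 genes. CPM are counts per 1e6 of the scaled library size. The difference between lines is the KELLY effect minus the mean of the IMR-32 and SK-N-DZ effects. The call was a Benjamini-Hochberg adjusted p under 0.05. Standard errors are the log2 value over the square root of its F statistic, and none is given where a group held no count. The alternatives were other scalings, no filter, a replicate block, background genes left out, each KELLY library left out, only the 4 KELLY libraries, DESeq2 1.42.0, and spline offsets for the GC content and length of the longest GENCODE v29 transcript, which 97.2% of tested genes had. The text names the 15 called genes with the highest and the 15 with the lowest fold change, given separate groups and a mean count of at least 50, the 10 most counted called genes of each direction, the 6 widest called differences of each direction, 13 fixed genes, and up to 6 members of each list by p; some of these genes are not reported here, and exceptions are marked. The 44 lists beside all genes include 1 of mitochondrially encoded genes, none of whose 13 symbols was matched in the files. The members and lists were chosen with earlier results of these data known. Intervals and floors cover counting error only.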

Additional observations from a re-analysis of the deposited data

Results flagged for a closer look

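The genes given here were set apart because their BRM014 effect in KELLY differed from the mean effect in IMR-32 and SK-N-DZ by edgeR's test of the difference itself. Values are differences of log2 fold changes. Groups of 2 libraries are too small for a test of single outlying samples.

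Among the strongest KELLY responders that rose, the difference was 4.18 for TIMP3, 2.85 for FOXC1, 2.70 for SYNPO2, 2.57 for DACT1 and 2.24 for SHOX2, the last not called in DESeq2. SYNPO2 had a log2 fold change of 3.48 in KELLY, 0.33 in IMR-32 and 1.22 in SK-N-DZ, and SHOX2 3.25, 0.65 and 1.37 in the same order of lines. FOXC1 was at 3.71, 2.29 and -0.57, and DACT1 at 3.86, 1.81 and 0.77. TIMP3 had too few counts in SK-N-DZ to give a direction there. PLXNA4 differed by 3.31, CCBE1 by 3.08, ROR1 by 3.02 and LRRTM2 by 2.89. Among regulators the difference was 1.75 for ISL1, -0.59 for PHOX2A, -0.51 for MYCN and 0.79 for MAB21L1.

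Among genes that fell more in KELLY, or rose less, the difference was -3.75 for SHD, -3.34 for GFRA2, -3.24 for KLHDC8B, -2.36 for MID1 and -2.35 for PCDH1. The fitted values of 6.51 for LAMA4 and -3.31 for LHX9 do not measure size, since a group in SK-N-DZ held no count and the prior count then sets them in part. Outside KELLY, LAMA4 had 1 and 0 counts with BRM014, against 2 and 1 with DMSO, in IMR-32, and 0 and 0 with BRM014, against 2 and 3 with DMSO, in SK-N-DZ. For PLXNA2 the difference was -2.20, with log2 fold changes of -3.33 in KELLY, -0.13 in IMR-32 and -2.11 in SK-N-DZ. For HS6ST1 it was -1.96, and this call was lost without BRM014 replicate 1 or DMSO replicate 2. CDK6 differed by -0.43. The chaperones HSPA8 (0.54) and HSP90AB1 (0.49) fell in KELLY and had log2 fold changes in the other lines of -1.03 and -1.26 and of -0.77 and -0.91 (IMR-32, then SK-N-DZ). RNR2 differed by -0.48, which was lost without BRM014 replicate 2 and in DESeq2 and turned direction without DMSO replicate 1.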

How the results depend on the processing

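The count of 1485 called genes was 1497 with RLE scaling, 1487 with upper quartile scaling, 1345 without the low-count filter, 1483 without genes flagged as background, 1595 from the 4 KELLY libraries alone, 1439 with DESeq2 and 1180 with GC and length offsets. Leaving out 1 library gave 872 (without DMSO replicate 1) to 1160 genes (without BRM014 replicate 2), 524 to 649 of them higher and 348 to 511 lower; without BRM014 replicate 1 it was 904. Such a fit leaves the lone library of its group to vary like the other groups. Differences between lines numbered 465, or 322 to 438 without 1 library, with 113 to 160 lower in KELLY, the fewest without DMSO replicate 1. The RNR2 difference of -0.48 reversed to 0.29 without DMSO replicate 1 and was -0.97 without DMSO replicate 2; the cause was not tested. The replicate numbers did not pair the KELLY libraries (correlation of same-numbered deviations -0.00879); with a replicate block 1450 genes and 496 differences were called. Of the 1485 calls, 15 were of genes whose unlabelled counts reached 10% of DMSO. With 2 libraries per group, changes in genes of few counts could not be detected, and a missing call does not show that a gene kept its level.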
